A study of Mus musculus with 6 samples.

Results

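The genes described here are 40 mouse genes known to be imprinted, named by symbol as known imprinted genes, and followed over 19 imprinted domains. Of the 40, 38 were found among the 41388 Ensembl identifiers by symbol. Snrpn was found by position, in an identifier (ENSMUSG00000000948) to which GENCODE M21 gives the symbol Gm38393, and no identifier covered Peg13, which was not analysed here. That left 39 members, of which 33 passed the filter on low counts and entered the test among 14958 genes. RNA came from EGFP-positive cells sorted by flow cytometry from dorsal root ganglia (DRG, the clusters of sensory neurons beside the spinal cord) at spinal levels T11 to S1 of C57BL/6 embryos at 18.5 dpc. Every library, male or female, carried the Ret-EGFP reporter, in which EGFP marks cells that use the gene of the Ret receptor. The genotype label names the allele Tg(Ret-EGFP)SJ, whereas the series text describes EGFP placed in the Ret locus of heterozygous animals, so all libraries share whatever that allele does to Ret. The 3 male libraries were pools of 3 embryos (male A) or 2 embryos (male C and male D), the female A library was a pool of 3, and female B and female C came from 1 embryo each.

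An imprinted gene is transcribed mainly from the copy inherited from one parent. A methylation mark set in the egg or the sperm at an imprinting control region is kept through development and decides which copy of each gene in a cluster is used. Such genes act in placental and fetal growth, and several are used strongly in neurons, where loss of the paternal or the maternal copy of the Prader-Willi/Angelman domain causes the syndromes that name it. The files hold 1 count per gene and library from a single strain, so the parental copy behind each value was not measured, and every value below is the sum over both copies.

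Total counts were 17861500 to 29330101 per library, and a gene at 0 could still hold up to 3 counts. CPM are counts scaled to a common library total, here with TMM factors unless stated. On library totals alone, without TMM factors, 3 counts came to 0.102 to 0.168 CPM. These limits cover counting error only, as the reads were amplified and carry no molecular identifiers. The libraries carried abundant RNA of sensory neurons, with 14570 to 20830 CPM summed over 8 pan-sensory neuron markers. Male A stood apart: satellite glia and Schwann cell markers summed to 3172 CPM there against 1281 to 1423 CPM elsewhere, and fibroblast and meningeal markers to 2876 CPM against 574.1 to 675.5 CPM. Skeletal muscle markers summed to 7.256 to 13.66 CPM, nearly all of it from Acta1, and the defining muscle gene Myog was at 0 in all libraries. In male A, genes with over 6000 bp of exon were also low against genes under 2000 bp, by -0.608 on the log2 scale, where the other 5 libraries lay between -0.10 and 0.39. The library labelled male C held 58.9 CPM of Xist, the X-inactivation RNA of females, against 0.418 and 0.575 CPM in the other two males and 111.4 to 197.1 CPM in females. Female B and female C are described in another form in the labels and form record set 2, with the other 4 in record set 1.

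Of the members, 32 had a RefSeq promoter window (GRCm38.p6), 250 bases before to 50 after a transcription start. Their windows held a median of 14.5 CpG dinucleotides, against 7 over all 32851 windows. The sequence TGCCGC, searched on both strands as the core recognised by ZFP57, a zinc finger protein that keeps methylation at imprinting control regions, was in a window of 11 of the 32 genes (34.4%), against 13.1% of all 27025 genes. The 11 were Meg3, Grb10, Mcts2, Igf2, Mest, Nap1l5, Nnat, Zim1, Plagl1, Snrpn and Zdbf2. Counted by window, TGCCGC was in 25.0% of the 48 member windows and in 11.6% of all windows. The motif itself holds a CG, and the part of CpG content in these shares was not tested. The sequence GCCATNTT, a core recognised by YY1, was in a window of Mkrn3 and of Ube3a, or 6.25% of the member genes against 6.96% of all (both strands). No member had both motifs, whose letters can overlap by a shared GC. A match describes letters in the window and not a bound site. The windows of Snrpn, Nnat and Nap1l5, which are 3 of the 4 members with the highest level per length, are shown with TGCCGC or its reverse complement in capitals.
Snrpn (chr7:60005150-60005449, minus strand): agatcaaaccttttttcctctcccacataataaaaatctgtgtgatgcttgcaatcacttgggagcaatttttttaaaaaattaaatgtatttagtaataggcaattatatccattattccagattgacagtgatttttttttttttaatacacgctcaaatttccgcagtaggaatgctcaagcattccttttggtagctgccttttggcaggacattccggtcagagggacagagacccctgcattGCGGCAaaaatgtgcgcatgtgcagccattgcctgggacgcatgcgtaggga
Nnat (chr2:157559828-157560127, plus strand): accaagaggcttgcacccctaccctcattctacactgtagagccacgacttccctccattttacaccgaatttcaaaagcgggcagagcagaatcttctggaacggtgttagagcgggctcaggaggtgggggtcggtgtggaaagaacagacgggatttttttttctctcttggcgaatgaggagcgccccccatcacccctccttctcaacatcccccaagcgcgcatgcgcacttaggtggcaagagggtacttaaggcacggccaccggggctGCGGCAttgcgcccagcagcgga
Nap1l5 (chr6:58907077-58907376, minus strand): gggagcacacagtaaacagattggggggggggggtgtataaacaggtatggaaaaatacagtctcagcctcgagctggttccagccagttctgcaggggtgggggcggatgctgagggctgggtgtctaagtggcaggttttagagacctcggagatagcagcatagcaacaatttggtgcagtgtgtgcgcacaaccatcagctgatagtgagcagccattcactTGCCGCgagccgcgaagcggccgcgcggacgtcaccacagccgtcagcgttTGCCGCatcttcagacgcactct
The RefSeq windows of Snhg14 and Ube3a, genes both low in male A and male C, are shown with each CG in capitals.
Snhg14 (chr7:60450128-60450427, minus strand): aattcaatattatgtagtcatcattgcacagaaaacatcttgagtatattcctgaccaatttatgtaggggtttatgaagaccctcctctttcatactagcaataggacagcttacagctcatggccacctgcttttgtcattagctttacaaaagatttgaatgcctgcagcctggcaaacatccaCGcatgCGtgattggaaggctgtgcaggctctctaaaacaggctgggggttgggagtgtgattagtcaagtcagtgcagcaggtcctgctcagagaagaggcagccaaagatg
Ube3a (chr7:59228500-59228799, plus strand): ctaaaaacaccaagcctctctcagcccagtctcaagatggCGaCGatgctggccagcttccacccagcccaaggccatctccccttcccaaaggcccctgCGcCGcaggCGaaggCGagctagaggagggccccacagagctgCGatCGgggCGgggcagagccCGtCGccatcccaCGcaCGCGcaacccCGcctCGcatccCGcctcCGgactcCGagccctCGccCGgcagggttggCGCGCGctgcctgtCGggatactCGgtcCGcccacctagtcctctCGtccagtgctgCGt
The Snhg14 window held 2 CG dinucleotides and the Ube3a window 29. It lies upstream of the Snhg14 locus counted in the files, which ends at 59975759, and is not the start of that gene model. It is also the window of the farthest upstream Snrpn start, and the windows of Peg3 and Usp29 overlap each other on opposite strands.

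Levels differed widely between domains. Of the 39 members, 33 had a mean of at least 1 CPM and 10 of at least 100 CPM. Their summed level averaged 6295.2 CPM, of which Snrpn supplied 48.6%. Between genes, levels are compared as RPKM, CPM divided by kilobases of exon, as mean ± SD over 6 libraries. Snrpn led with 447.9 ± 48.5 RPKM, followed by Ndn with 434.1 ± 69.1 RPKM, Nnat with 228.6 ± 34.1 RPKM and Nap1l5 with 78.0 ± 24.3 RPKM. On the deposited exon lengths, Snrpn and Ndn differed by less than their SDs, whereas Ndn and Nnat, and Nnat and Nap1l5, were further apart than theirs. The closeness of Snrpn and Ndn rests on those lengths. The Snrpn identifier has 6831 bp of exon, whereas M21 gives Snrpn 2159 bp. Its level per length over those 2159 bp depends on how many of the counts fall there, which is not given. The next members were Inpp5f (53.4 ± 14.5 RPKM), Impact (49.2 ± 16.9), Mcts2 (36.97 ± 2.51) and Blcap (36.7 ± 4.70), and neighbours among these 4 lay within the larger of their SDs. At the other end, Dlk1 and Rtl1 had no count in any library, and Phlda2, Asb4, Dio3 and Rian had 17, 42, 3 and 1 counts over all 6. In bulk libraries, fewer cells using a gene and less RNA per cell cannot be told apart. RPKM rests on the exon lengths of the deposited annotation, which are shorter than those of GENCODE M21 for some members: 24.7% of the M21 exon bases of Ube3a, 14.4% of those of Usp29, 29.0% of those of Sgce and 44.7% of those of Ndn were covered.

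**Figure D1:**
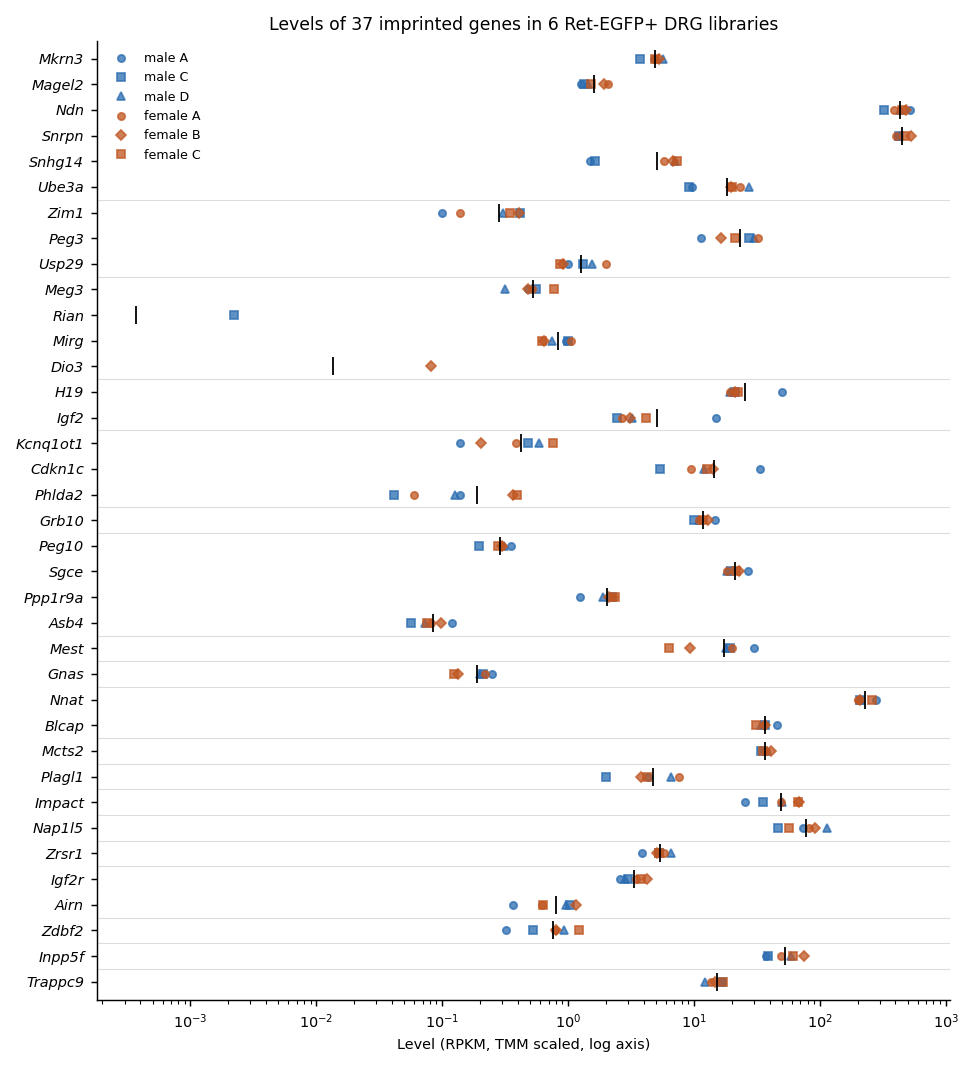
Level of the 37 members with any count, in RPKM on a log axis, grouped by imprinted domain, with 1 point per library (blue male, orange female, marker shape by library, values of 0 not drawn) and a black tick at the mean. Snrpn, Ndn and Nnat sit farthest to the right with their 6 points close together, and the means of the Dlk1-Dio3 members and of Gnas lie below 1 RPKM.

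The Prader-Willi/Angelman domain on chromosome 7 held the 2 members with the highest level per length, and all 6 of its members were detected in every library. Snrpn (GRCm38 chr7:59974149-60140219, minus strand) encodes the splicing protein SmN, used in neurons in place of its close relative SmB. Its level was 2838, 2917 and 2936 CPM in male A, C and D and 2763, 3638 and 3264 CPM in female A, B and C. Female B and female C were the highest, and the range was narrow, with an SD of log2 CPM of 0.15 that only 6.82% of tested genes fell below. The identifier holds all 2159 bp of the M21 Snrpn exons among its 6831 bp and also spans Snurf, so the counts are of the shared locus and part of them may come from exon bases outside M21 Snrpn. Ndn (chr7:62348277-62349928, plus strand) encodes necdin, a protein of postmitotic neurons that binds E2F factors. It stood at 854.9, 533.9 and 724.0 CPM in male A, C and D and 644.2, 795.3 and 750.2 CPM in female A, B and C, with male A highest and male C lowest. Magel2 (chr7:62376979-62381640, plus strand), which helps a ubiquitin ligase recycle membrane proteins, was low: 5.95, 6.23 and 6.66 CPM in male A, C and D, and 9.77, 9.02 and 7.11 CPM in female A, B and C. Its sexes did not overlap. Mkrn3 (chr7:62417593-62420139, minus strand), a ubiquitin ligase known for restraining the onset of puberty, stood at 12.3, 9.56 and 14.6 CPM in male A, C and D and at 12.5, 13.4 and 12.5 CPM in female A, B and C, with the sexes overlapping.

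Snhg14 and Ube3a departed from the steadier members of that domain. Snhg14 (chr7:59307924-59975759, minus strand) is the long paternal RNA that hosts small nucleolar RNAs, and in neurons its far end runs antisense to Ube3a. Its level was 38.4 CPM in male A and 42.6 in male C, against 183.3 CPM in male D and 149.7, 177.2 and 190.5 CPM in female A, B and C. Male A and male C thus formed a low pair, and the highest library was 4.96 times the lowest. Ube3a (chr7:59228752-59306727, plus strand), the ubiquitin ligase lost in Angelman syndrome, had 48.9 CPM in male A and 47.0 in male C, against 139.1 CPM in male D and 118.1, 100.6 and 103.1 CPM in female A, B and C. The same 2 libraries were low. Male A and male C were both at most 0.5 times every other library for these 2 of 33 members and for 0.508% of all tested genes, and with plain library totals in place of TMM for Snhg14 alone (0.348% of genes). The 2 genes share no exon base in the deposited annotation. In M21, 18.3% of the longest Ube3a transcript matches Snhg14 on the opposite strand at 95% identity or more, and the deposited annotation covers 98.9% of the M21 exon bases of Snhg14 but 24.7% of those of Ube3a. The strand setting is not given, so Ube3a reads from there may have been counted as Snhg14. Malat1, an abundant nuclear RNA, was also lowest in these 2 libraries, at 1113 CPM in male A and 1920 in male C, against 2785 to 6405 CPM in the others. The SD of log2 CPM of Snhg14 was 1.10, above 96.4% of tested genes. Male C lacked the excess of non-neuronal markers and of short genes seen in male A, with 574.1 CPM of fibroblast markers and a long minus short difference of 0.131. It did hold Xist, at 58.9 CPM, and the part of these differences in the Snhg14 and Ube3a levels was not tested.

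**Figure D2:**
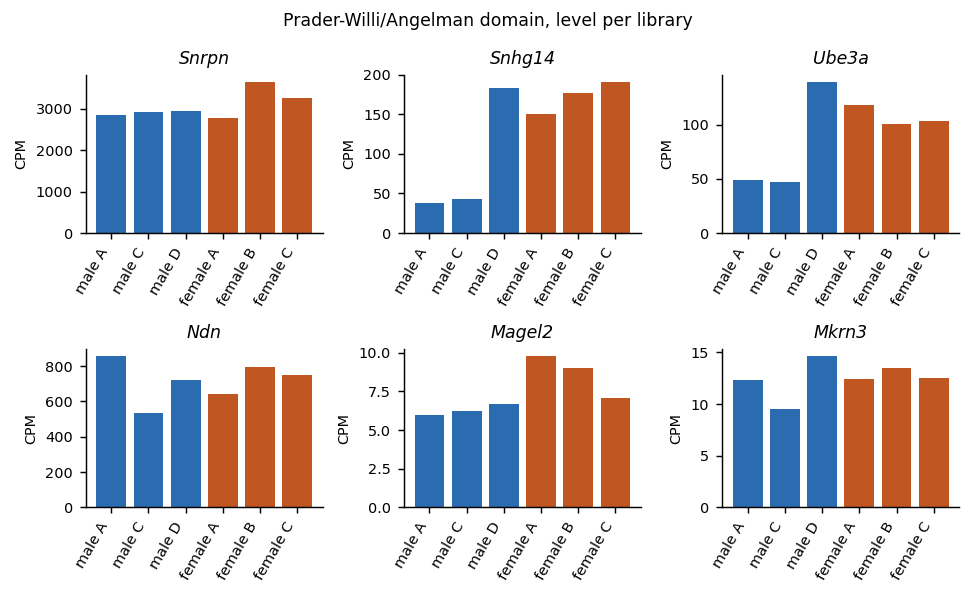
CPM of the 6 Prader-Willi/Angelman members in each library as bars from 0 (blue male, orange female, 1 bar per library, each panel with its own scale). Snhg14 and Ube3a are low in male A and male C, whereas Snrpn lies between 2763 and 3638 CPM throughout.

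The Peg3 domain was led by Peg3 (chr7:6703892-6730421, minus strand), a paternally used zinc finger gene. Peg3 stood at 152.6, 364.3 and 401.1 CPM in male A, C and D and 433.0, 217.2 and 281.3 CPM in female A, B and C. Male A was lowest, and both libraries of record set 2 were below the remaining 3. Usp29, a deubiquitinase gene that starts beside Peg3 on the other strand, ranged from 2.25 to 5.25 CPM. Zim1, a maternally used zinc finger gene, ranged from 0.366 CPM in male A to 1.52 CPM in male C.

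The Dlk1-Dio3 domain on chromosome 12 had few counts in these libraries, and the strand and multi-mapping settings behind them are not given. Its protein-coding members are the Notch-like ligand Dlk1, the retrotransposon-derived Rtl1 and the thyroid hormone deiodinase Dio3. Dlk1 and Rtl1 were at 0, which allows up to 0.102 to 0.168 CPM per library on library totals, and the 3 counts of Dio3 all came from female B. Of its maternal noncoding RNAs, Meg3 (chr12:109541001-109571726, plus strand) was at 8.67, 10.2 and 5.75 CPM in male A, C and D and at 9.45, 8.63 and 14.1 CPM in female A, B and C. This came to 0.523 RPKM over its 18089 bp of exon, a level above 12.96% of the tested genes. Mirg, the host of a microRNA cluster, was at 7.05, 7.25 and 5.41 CPM in male A, C and D and at 7.76, 4.70 and 4.55 CPM in female A, B and C. Rian, a snoRNA host lying between Meg3 and Mirg, had 1 count, in male C. Of the Meg3 exon bases, 8.3% overlap another gene in the deposited annotation, chiefly the antisense Gm26906, which had 0 counts.

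Igf2, H19 and Cdkn1c stood out as high in male A. H19 (chr7:142575529-142578143, minus strand) is a maternal noncoding RNA that hosts a growth-restraining microRNA. H19 reached 118.4 CPM in male A, against 50.03 and 46.0 CPM in male C and D and 45.8, 50.5 and 52.9 CPM in female A, B and C. Male A alone was high and the other 5 were close together. Igf2 (chr7:142650766-142666816, minus strand), the paternal fetal growth factor gene next to it, had 85.3, 14.0 and 18.4 CPM in male A, C and D and 15.4, 17.7 and 23.8 CPM in female A, B and C. Cdkn1c (chr7:143458350-143461050, minus strand), the maternal gene of the cell cycle inhibitor p57, had 64.4, 10.3 and 23.2 CPM in male A, C and D and 18.5, 27.5 and 24.8 CPM in female A, B and C. Male A was again the highest for both, with no overlap with the other libraries. These were the 3 of 33 members at least 2 times higher in male A than in every other library, a share to be read against 4.41% of all tested genes. Several marker lists of other cells were also high in male A, as were cell cycle genes, and other lists were not. The summed fibroblast and meningeal level in male A was 2876 CPM, and 6 of 7 tested markers of that list were highest there. The 7 cell cycle genes, all highest in male A, summed to 317.5 CPM there against 86.63 to 126.4 CPM. The list of endothelial and pericyte markers summed to 105.1 CPM against 43.44 to 82.89 CPM. Their part in the H19, Igf2 and Cdkn1c levels was not tested.

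**Figure D3:**
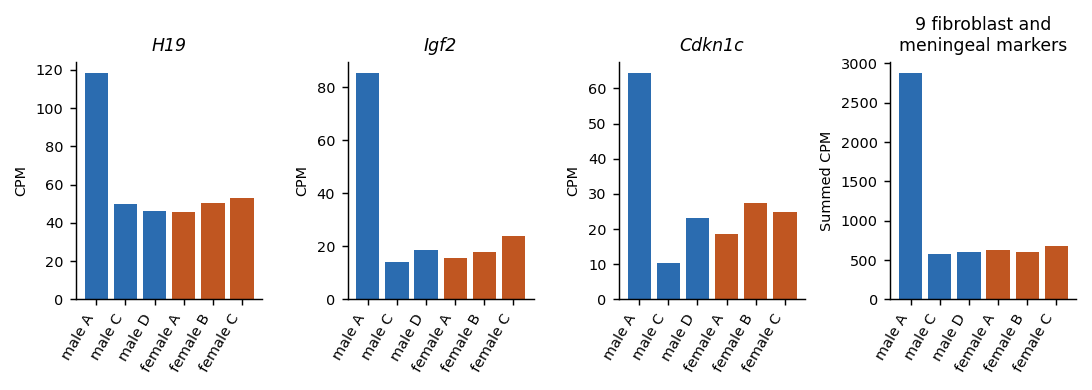
CPM of H19, Igf2 and Cdkn1c and the summed CPM of 9 fibroblast and meningeal marker genes, with 1 bar per library from 0 (blue male, orange female). The bar of male A is the tallest in all 4 panels.

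In the Kcnq1 domain, Kcnq1ot1 (chr7:143212155-143296549, minus strand) is the paternal noncoding RNA that silences its neighbours, Cdkn1c among them. Kcnq1ot1 was at 11.6, 40.7 and 49.3 CPM in male A, C and D and 32.4, 17.1 and 64.6 CPM in female A, B and C. It was lowest in male A and female B, and its SD of log2 CPM of 0.94 was among the 5 largest of the members, after Snhg14 (1.10) and Igf2 (0.96) and before Cdkn1c (0.86) and Mest (0.83). Phlda2, a placental growth regulator, stayed between 0.0316 and 0.300 CPM. Over the members, male A was the lowest library for 12 of 33 (28.3% of all genes) and the highest for 11 of 33 (31.1%). The 12 had a median exon length of 8880.5 bp and the 11 of 3086 bp, and over all genes the medians were 5059 and 3095 bp, so that length moved with the direction in male A among members and in general. The part of length was not tested.

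**Figure D4:**
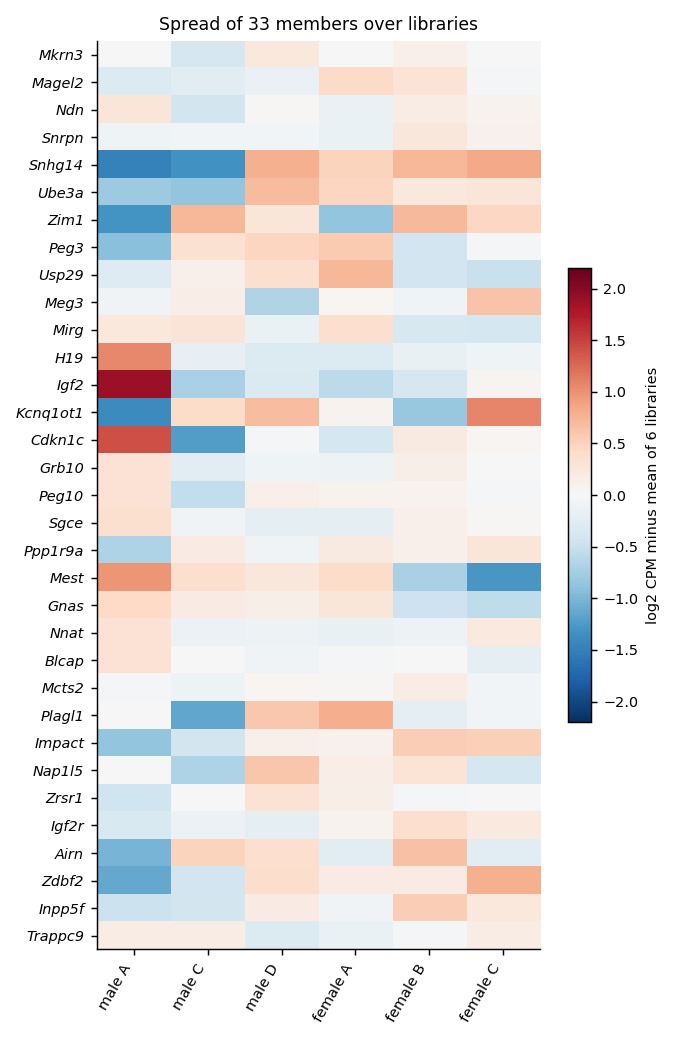
Departure of each of the 33 tested members (rows, ordered by domain) from its own mean over the 6 libraries (columns), in log2 CPM, red higher and blue lower. Male A is red for H19, Igf2 and Cdkn1c, male A and male C are blue for Snhg14 and Ube3a, and the rows of Snrpn, Mcts2 and Blcap are nearly white.

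Several members outside these clusters were high and steady. Nnat (chr2:157560078-157562522, plus strand) encodes neuronatin, a small membrane protein of neurons and endocrine cells, and lies within an intron of Blcap. Nnat was at 514.7, 379.3 and 381.9 CPM in male A, C and D and 369.6, 384.0 and 479.6 CPM in female A, B and C, with male A and female C above the rest. Blcap ranged from 95.1 to 138.0 CPM. The steadiest member was Mcts2 (chr2:152687035-152687951, plus strand), a paternal retrogene inside H13, with 32.9, 31.1 and 34.8 CPM in male A, C and D and 34.3, 37.8 and 32.5 CPM in female A, B and C. Its SD of log2 CPM was 0.10, above 1.14% of tested genes. Nap1l5 (chr6:58905234-58907126, minus strand), a retrogene related to a nucleosome assembly protein, was more variable, at 140.4, 88.8 and 216.3 CPM in male A, C and D and 156.8, 175.2 and 108.7 CPM in female A, B and C. Male C and female C were lowest.

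Mest (chr6:30723547-30748455, plus strand), a paternal gene of a hydrolase-like protein tied to fetal growth, was at 118.1, 76.5 and 70.9 CPM in male A, C and D and 79.5, 36.8 and 24.8 CPM in female A, B and C. Record set 2 was low and male A high. Of the Mest exon bases, 22.9% overlap Copg2 on the opposite strand, so its count is uncertain. Grb10 (chr11:11930508-12038683, minus strand), an adaptor that restrains insulin signalling, was even by comparison, at 134.1, 90.3 and 100.6 CPM in male A, C and D and 99.1, 117.2 and 106.8 CPM in female A, B and C. Plagl1 (chr10:13090691-13131694, plus strand), a zinc finger factor, ranged more widely, at 31.8, 14.5 and 48.2 CPM in male A, C and D and 55.9, 27.8 and 30.7 CPM in female A, B and C. Zrsr1 (chr11:22973215-22976496, plus strand), a retrogene related to a splicing factor, was at 12.8, 17.4 and 21.6 CPM in male A, C and D and 19.03, 16.8 and 17.5 CPM in female A, B and C, with male A lowest. Trappc9 (chr15:72589621-73061204, minus strand), a subunit of a vesicle tethering complex, was at 106.9, 107.2 and 77.6 CPM in male A, C and D and 86.7, 94.0 and 108.0 CPM in female A, B and C. The sexes overlapped for each of these 5. Zdbf2 (chr1:63273265-63314576, plus strand), a paternal zinc finger gene, ranged from 4.07 CPM in male A to 15.4 CPM in female C, at 0.763 RPKM, with a log2 difference between females and males of 0.66 (SE 0.39).

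In the Peg10-Sgce domain on chromosome 6, Sgce (chr6:4674350-4747204, minus strand), which encodes epsilon-sarcoglycan and is mutated in myoclonus-dystonia, was the highest per length at 21.3 ± 3.25 RPKM. Sgce stood at 83.0, 61.3 and 56.5 CPM in male A, C and D and at 56.7, 70.0 and 66.5 CPM in female A, B and C. Its divergent neighbour Peg10, a retrotransposon-derived gene needed in placenta, ranged from 1.30 to 2.35 CPM, and Ppp1r9a, the neuronal actin-binding protein neurabin, from 18.0 to 34.6 CPM. Asb4 stayed between 0.222 and 0.470 CPM. Gnas (chr2:174284320-174346744, plus strand), the gene of the stimulatory G protein alpha subunit, was listed with 283 counts over all libraries and 1.401 to 2.77 CPM. This was 0.190 RPKM, higher than 3.14% of tested genes. Of its 11186 bp of exon, 22.0% overlap other genes, with the antisense Gm20721 the largest at 1469 bp, and how the counting treated such reads is not given.

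The comparison of the sexes asks whether any member differed between female and male embryos. No member did at a Benjamini-Hochberg adjusted p under 0.05 in edgeR's quasi-likelihood test: 0 of 33 were called, against 0.0267% of all tested genes, and the smallest adjusted p of a member was 0.9608. DESeq2 and limma voom called 0 of 33 as well. Male C was counted as male, as labelled, although it held 58.9 CPM of Xist. Whether that pool held female cells was not tested, and it enters every comparison of the sexes here unless left out. Without male C, 0 of 33 were called, and 1 of 33, Igf2, had an unadjusted edgeR p under 0.05, as did 787 of 15291 tested genes. Impact and Igf2r, described next, did not, although their log2 differences were 0.70 and 0.50, against 0.74 and 0.45 with all libraries. At an unadjusted p under 0.05, 2 of 33 members passed in edgeR, Impact and Igf2r, both higher in females, against 4.42% of all genes in either direction and 2.9% with females higher. Impact, which encodes an inhibitor of the kinase GCN2 and is used in neurons, was at 87.0, 121.3 and 171.8 CPM in male A, C and D and at 170.0, 233.4 and 229.9 CPM in female A, B and C. The lowest female overlapped the highest male, and the log2 difference was 0.74 (SE 0.27, edgeR unadjusted p = 0.0235, adjusted p = 0.9608). Igf2r (chr17:12682406-12769664, minus strand), the receptor that clears IGF2 and is used from the maternal copy in most tissues, was at 24.6, 28.5 and 26.7 CPM in male A, C and D and at 32.9, 40.3 and 36.0 CPM in female A, B and C. All 3 females were above all 3 males, with a log2 difference of 0.45 (SE 0.20, edgeR unadjusted p = 0.0464), which was lost on adjustment, and under DESeq2, limma voom, RLE scaling or library totals its unadjusted p was not under 0.05. Airn, its antisense silencer, ranged from 1.31 to 4.15 CPM. Magel2 and Igf2r were the 2 of 33 members whose sexes did not overlap, both with females higher, against 8.06% of all genes in either direction and 4.18% with females higher. On plain library totals, which shift the median log2 difference of all genes from -0.00 to -0.12, Impact joined them, and 2.83% of all genes had females higher without overlap.

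Over the 33 tested members the median log2 difference was 0.04, against -0.00 over all tested genes, and 20 of 33 were above 0, against 49.5% of all. The median size of the difference was 0.17 in members and 0.22 in all genes. The widest differences were 0.97 for Snhg14 (SE 0.54, edgeR unadjusted p = 0.103) and -1.05 for Igf2 (SE 0.60, edgeR unadjusted p = 0.116). Both rest on the uneven male libraries: without male A and male C the Snhg14 difference was -0.10, and without male A that of Igf2 was 0.22. For Mest the difference was -0.91 (SE 0.41, edgeR unadjusted p = 0.0516, under 0.05 with DESeq2, limma voom, RLE scaling or library totals), with a mean of 88.5 ± 25.8 CPM over the 3 males and 47.1 ± 28.8 CPM over the 3 females. Replicate letters are shared between the sexes only for A and C. With the letter as a block, Snhg14 passed, with a log2 difference of 2.06 and an adjusted p of 0.002342, in a fit where the sex effect comes from male A and male C alone against their namesakes and 1 residual degree of freedom remains. Without male D, Snhg14 passed too (2.09, edgeR adjusted p = 0.03155). That fit also rests on male A and male C, both low in Snhg14, as the only males, so it is no separate evidence. It put 1795 genes at an unadjusted p under 0.05, against 661 in the main fit.

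**Figure D5:**
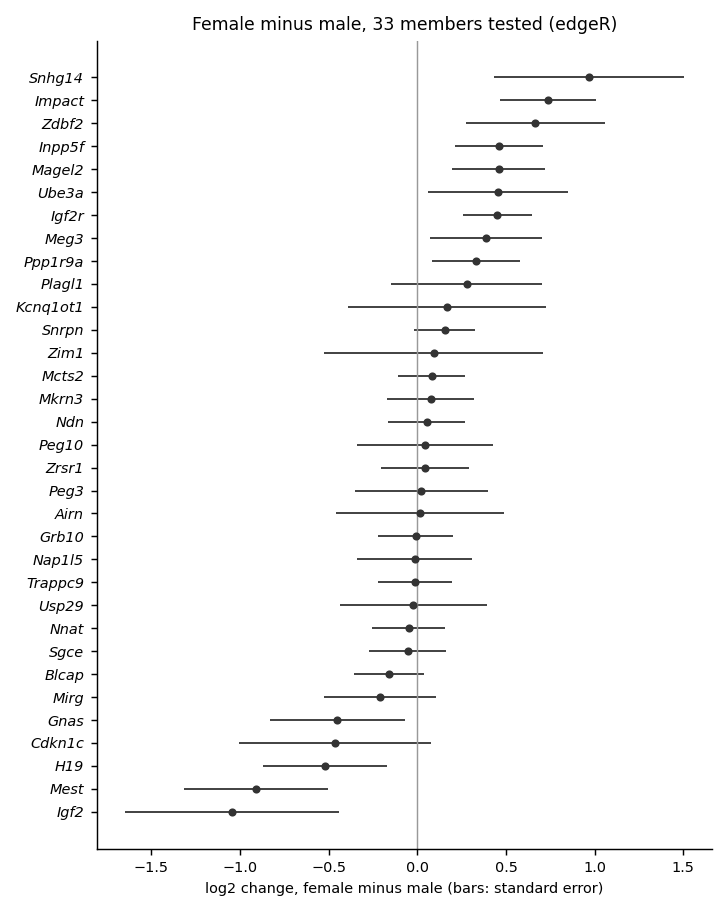
Log2 difference between female and male libraries (x axis, points with bars of 1 standard error) of the 33 tested members, sorted from female lower at the bottom to female higher at the top. Igf2 and Mest lie farthest left and Snhg14 farthest right, each with wide bars.

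Record set moved with sex, since both libraries of record set 2 were female. They lay above all 4 of record set 1 for Snrpn, Impact, Igf2r and Inpp5f, 4 of 33 members against 11.3% of all genes, and below them for Usp29, Mirg, Mest and Gnas, 4 of 33 against 10.3%. On plain library totals Snrpn was no longer among the former. Malat1 was also highest in record set 2, at 5504 and 6405 CPM, and its part was not tested. Inpp5f (chr7:128611328-128696425, plus strand), a phosphoinositide phosphatase gene, was at 309.2, 325.5 and 488.8 CPM in male A, C and D and at 410.9, 627.9 and 505.9 CPM in female A, B and C. Within record set 1, where female A stands alone against the 3 males, the log2 difference was 0.42 for Impact and -0.15 for Mest. A value within record set 2 does not exist, as it holds females only.

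Co-variation inside domains was examined over the 6 libraries for all 26 pairs of tested members that share a domain. Correlations of log2 CPM were positive in 20 of 26, with a median Pearson r of 0.332. Most of the 26 pairs came from the Prader-Willi/Angelman domain, where each of 6 members enters several pairs, so they are not independent. The share among pairs of other genes is not given, so the count does not show co-variation particular to imprinted domains. None of the correlations passed adjustment over the 26 pairs by an exact permutation test (two-sided, 720 pairings, smallest possible p 0.00139). The smallest adjusted p was 0.3731 for Pearson and 0.65 for Spearman. Before adjustment 3 pairs had an exact Pearson p under 0.05, Snhg14 with Ube3a, Mkrn3 with Ube3a and H19 with Igf2, and 0 by Spearman. Without male A and male C, r was -0.13 for Snhg14 with Ube3a. For Mkrn3 with Ube3a it was 0.36 without male D and male C. For 12 of the 26 pairs, those with Snhg14, Ube3a, Zim1 or Nnat, the libraries of one gene fell into 2 separate clusters, so that a pooled r is not given. The count of positive pairs and the median r above include these 12. H19 and Igf2, which share an enhancer region and are used from opposite parental copies, had r = 0.97 (exact permutation p = 0.0361, adjusted 0.373) and rho = 0.71 (exact p = 0.136). That relation rested on male A: without the 2 libraries farthest from the median, male A and female A, r was 0.35. Peg3 and Usp29 had r = 0.77 (exact permutation p = 0.0764) and rho = 0.77 (exact p = 0.103), with r = 0.99 over the 4 libraries left without male A and female B. Leaving out 1 library, their r ranged from 0.69 without female A to 0.90 without male A. Igf2r and its antisense Airn had r = 0.44 (exact permutation p = 0.378), and Kcnq1ot1 and its target Cdkn1c had r = -0.66 (exact permutation p = 0.158). Both changed sign without the 2 outermost libraries, to -0.91 and 0.53. Meg3 and Mirg had r = -0.11 (exact permutation p = 0.80), which also changed sign, to 0.59. Record sets of 4 and 2 libraries were too small for a correlation within them. An r without 2 libraries also rests on 4 and only describes how much r hung on those left out.

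Further imprinted genes, and genes that keep imprints, were set beside the members. Of 39 further genes reported as imprinted, 35 were found and 23 tested, at a median log2 difference of -0.13. Of the 23, 0 were called, against 0.0267% of all tested genes, and 10 were above 0, against 49.5%. Pon3, a lactonase gene, was the 1 of 23 with an unadjusted edgeR p under 0.05, against 4.42% of all tested genes. Its log2 difference was -1.64, at a low level of 0.221 to 1.78 CPM, with male A highest. The highest levels per length in that list were Cd81, a tetraspanin, at 421.3 ± 117.4 RPKM, the histone chaperone gene Nap1l4 at 147.2 ± 18.4, the matrix proteoglycan Dcn at 145.4 ± 22.7 and the coatomer gene Copg2 at 19.7 ± 4.13. Of 10 genes whose products keep imprints, 8 were tested, 0 were called and 5 were above 0. Zfp57 was at 22.6 ± 3.88 RPKM, Zfp445, another zinc finger gene of that role, at 10.2 ± 5.40, their corepressor Trim28 at 9.98 ± 1.10 and the maintenance methyltransferase Dnmt1 at 8.58 ± 0.973. Dppa3, a factor of the egg and early embryo, was at 0 in all libraries.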

How the data were processed

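Each of the 6 libraries (3 male, 3 female) has 1 file. Per the submitters' processing notes, Subread (version not stated) and featureCounts 1.4.5 were used on GRCm38.p2; strand and multi-mapping settings are not stated. The authors deposited raw counts per Ensembl gene, with exon lengths. The deposited CPM are counts scaled by the library sum, and the deposited RPKM are those divided by exon kilobases; both were recomputed, differing by at most 4.5e-11 and 5.5e-12. Only counts and lengths were used further.

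Symbols and exon models came from GENCODE M21, and Snrpn was matched by exon position (at least 80% of its bases). Levels are TMM-scaled CPM (factors 0.922 to 1.08), also per kilobase, as mean ± SD. Females and males were compared with edgeR 4.0.16 (R 4.3.3) glmQLFit and glmQLFTest, filterByExpr, sex as the only term, Benjamini-Hochberg threshold 0.05. Log2 values for spread and correlation use a prior count of 2. Near copies were sought with blastn 2.17.0 (95% identity, 150 bp). The test was tested on simulated data. Replicates are libraries of different embryos, 4 of them pools of several, and p-values measure the spread between these libraries.

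Library values were given for the member with the highest RPKM of each domain of 2 or more members, members of the Prader-Willi/Angelman and Dlk1-Dio3 domains of at least 1 CPM, single-gene domains of at least 10 CPM, members with an unadjusted p under 0.05 or no overlap of the sexes, and the 5 with the largest spread; of other lists, the 4 highest per length and any single gene with an unadjusted p under 0.05, the latter chosen after its value was seen. The members are known imprinted genes; they and the lists were chosen with earlier results of these data known. Alternatives were RLE scaling, library totals, other filters, DESeq2 1.42.0, limma 3.58.1 voom, record set as a term or alone, a block for the replicate letter, and leaving out libraries; patterns over single libraries on library totals, and Dixon's gaps in CPM, were added after the data were seen.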

Additional observations from a re-analysis of the deposited data

Results flagged for a closer look

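On the log2 CPM scale, 3 members had 1 library apart from the other 5 by more than Dixon's 95% critical value for 6 libraries, and male A was that library each time. H19 had 118.4 CPM there, with a gap to the next library of 0.849 of the whole log2 range. Igf2 had 85.3 CPM, with a gap of 0.708, and Ppp1r9a was lowest there at 17.97 CPM, with a gap of 0.647. In CPM, a scale added after the data were seen, the gaps were 0.902 for H19, 0.863 for Igf2 and 0.681 for Cdkn1c (0.464 in log2), and that of Ppp1r9a, 0.571, no longer passed. Chance flags about 1 in 20 groups, and 33 members were examined. The share of all tested genes passing the same rule is not given, so the 3 cannot be set against it. Male A was the highest library for 31.1% of all tested genes and the lowest for 28.3%. Male A also held the highest satellite glia, fibroblast and cell cycle marker sums and the lowest level of long against short genes, and their part in these values was not tested.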

How the results depend on the processing

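Mean levels moved by less than the SD over libraries in all 259 recomputed values. Most of these left out 1 library, which can move a mean by only a part of that SD. For them the outcome was fixed in advance and does not show that levels are stable. Igf2 fell from 29.1 to 17.9 CPM without male A, and Rian and Dio3 fell to 0 without male C or female B. Members of at least 1 CPM went from 33 to 32 in 3 settings, where Zim1 was under 1. With 4 genes called over the whole table, the count was 14 without the low-count filter, 13 by DESeq2, 1 by limma voom, and 0 with record set as a term (51 genes at an unadjusted p under 0.05) or in record set 1 only (38), and 0 to 5 leaving out 1 library, with 0 without female A (1110 at an unadjusted p under 0.05). With the replicate block it was 77 genes and 1 member, Snhg14; the labels do not say that letters pair libraries, and same-letter deviations correlated at -0.078 (A) and 0.052 (C). Called members ranged from 0 to 1 leaving out 1 library. Members at an unadjusted p under 0.05 were Impact and Igf2r by edgeR, Mest and Impact by DESeq2, RLE scaling and library totals, and Snhg14, Mest and Impact by limma voom. On library totals, the pattern low in male A and male C held 1 member in place of 2, and sexes without overlap 3 in place of 2 (2.83% of all genes with females higher, 4.18% with TMM).

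Of 192 differences between the sexes, of 12 members over 16 settings, 180 kept their direction and call, 2 passed the threshold, both for Snhg14, and 10 changed sign. Without male A and male C they were -0.10 for Snhg14, -0.38 for Ube3a, 0.0306 for Igf2, 0.10 for H19 and 0.0117 for Cdkn1c. Leaving out 1 library gave -1.4505 to 0.22 for Igf2, -0.7567 to 0.0478 for H19 and -0.8916 to 0.50 for Cdkn1c, above 0 in each without male A. For Snrpn they were -0.0685 with record set as a term and -0.0702 in record set 1 only. Their cause was not tested. Depth limits the members at 0 or few counts. The biological coefficient of variation was 31.1%.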
